A study of Mus musculus with 8 samples.

Results

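Lineage markers of cells other than macrophages were followed in RNA sequencing libraries of mouse macrophages, to see which libraries carried transcripts of other cells and how these transcripts moved with the groups compared. The 42 genes were chosen by name, as markers of 6 cell types: 7 for B cells, 7 for T cells, 7 for mast cells, 7 for dendritic cells, 8 for fibroblasts and 6 for mesothelial cells. All 42 symbols were present among the 24421 genes counted in each of the 8 libraries, and 36 of them had enough counts to enter the test across 13821 genes. The 6 markers that did not enter it were Cd3e, Mcpt4, Fcer1a, Flt3, Xcr1 and Itgae. The libraries came from primary macrophages of 3 genotypes, all from mice on a normal diet. The groups were wild type (WT, 3 libraries), LysM-DKO (3 libraries so labelled), which the design text of the series calls an epsin double knockout, and ABCG1KO (2 libraries), which that text describes as a knockout of ABCG1. LysM is a name for lysozyme, encoded by Lyz2, whose promoter is widely used to drive Cre recombinase in myeloid cells, but the labels do not state the alleles or the driver. The labels give neither the tissue of origin nor the age or sex of the mice, nor whether libraries of a group came from separate animals, so p-values measure the spread between these libraries.

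A preparation of primary macrophages can carry other cells of the tissue it was taken from. Lymphocytes, mast cells and dendritic cells are immune cells that share body cavities and tissues with macrophages, whereas fibroblasts make collagenous matrix and mesothelial cells line the body cavities. A marker of one lineage is not always silent in another: CD22 and the interleukin 7 receptor are best known from lymphocytes, but several markers of this kind are also transcribed in some myeloid cells, and SPARC and collagens are made by many cells. In bulk RNA, fewer cells of a type and less RNA per cell cannot be told apart.

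The libraries held 29567615 to 41888516 counts in genes. Levels are given as CPM, the counts of a gene relative to the depth of its library, scaled by a factor per library that evens out composition (TMM), and a count of up to 3 was treated as a level that a count of 0 also allows, which is 0.0716 to 0.101 CPM before scaling. Macrophage transcripts were abundant everywhere: a list of 12 macrophage genes that included Lyz2, Cd68 and C1qb summed to 14975 to 27028 CPM, with all 12 genes over 3 counts in all 8 libraries. Abcg1 was at 385 ± 34.6 CPM in WT (SD, n = 3), 346 ± 162 in LysM-DKO (n = 3) and 66.9 ± 9.16 in ABCG1KO (n = 2). Epn1 was at 208 ± 19.6, 169 ± 14.1 and 169 ± 18.9 CPM and Epn2 at 7.34 ± 2.08, 8.40 ± 4.20 and 18.5 ± 0.0495 CPM in the same order. Most of both epsin transcripts was therefore still counted under the label LysM-DKO, and every direction given for that group rests on the label. Xist was over 79.0 CPM in all WT libraries and in LysM-DKO 2 and 3, while the Y-linked gene Ddx3y was over 81.6 CPM in LysM-DKO 1 and both ABCG1KO libraries, so sex and genotype cannot be told apart between ABCG1KO and WT. Reads outside annotated genes made up 10.2% and 13.8% in the ABCG1KO libraries and 4.26% to 6.07% in the other 6, and the part of this difference in the results was not tested.

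Traces of other cells were uneven between libraries of the same genotype. WT 2 carried the most B cell markers, and ABCG1KO 1 the most mast cell transcripts and the least fibroblast transcripts. Both ABCG1KO libraries had the highest sums of the 7 dendritic cell markers, and LysM-DKO 3 had the most fibroblast transcripts. Over 3 counts were found for 32, 37 and 28 of the 42 markers in WT 1, 2 and 3, for 20, 32 and 27 in LysM-DKO 1, 2 and 3, and for 36 in each ABCG1KO library. Of the 42 markers, 12 were highest in ABCG1KO 1, 9 in WT 2, 8 in LysM-DKO 3, 6 in LysM-DKO 2, 3 in ABCG1KO 2, 2 in LysM-DKO 1, and 1 each in WT 1 and WT 3. LysM-DKO 1, the deepest library, thus had the fewest markers over 3 counts, with no count at all for 12 of them.

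**Figure D1:**
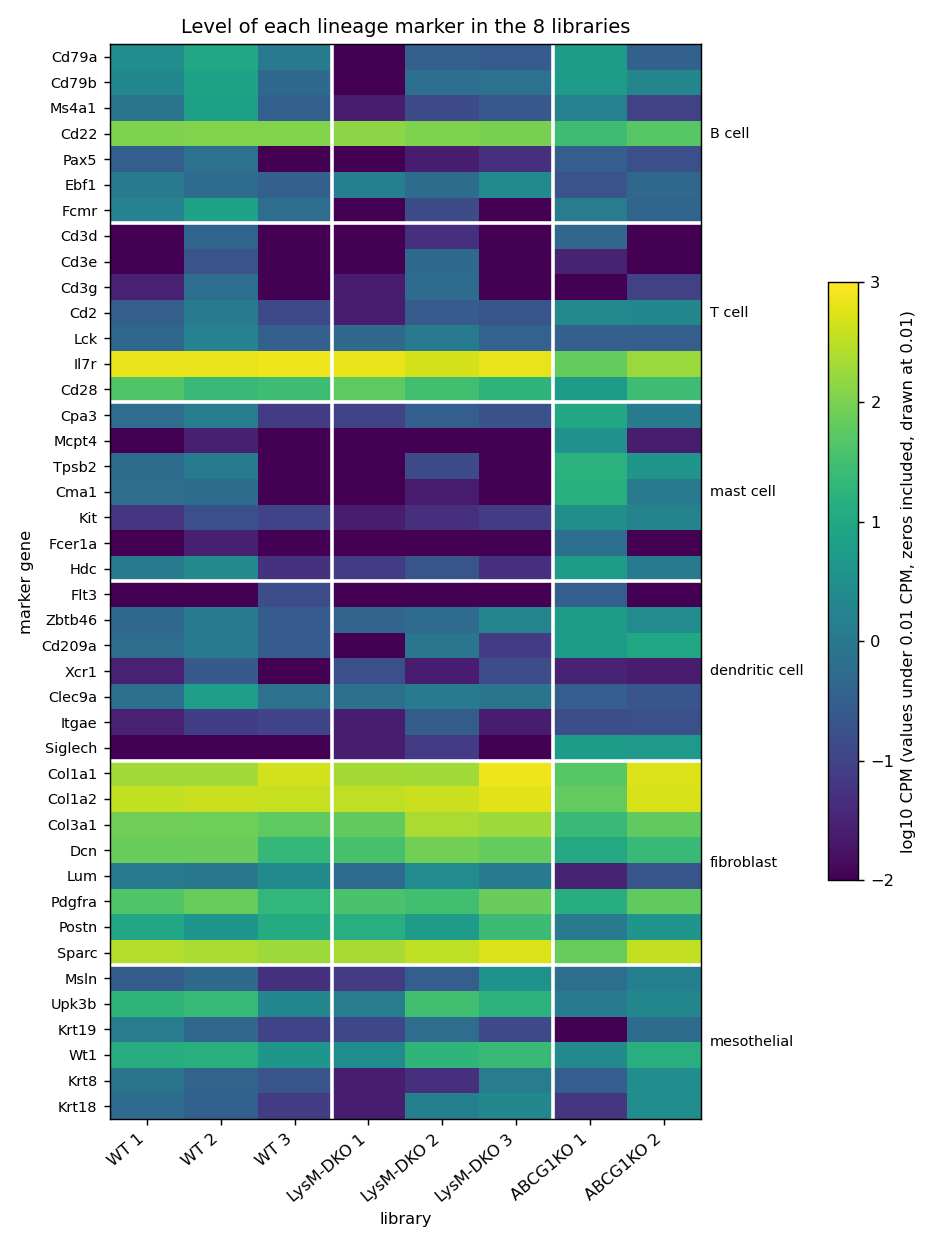
Each row is one of the 42 markers, each column one library, and the colour gives log10 CPM, with values under 0.01 CPM drawn at 0.01. Cd22, Il7r, Cd28 and most fibroblast genes are bright in every library, mast cell genes are brightest in ABCG1KO 1, and Siglech is bright in both ABCG1KO libraries alone.

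**Figure D2:**
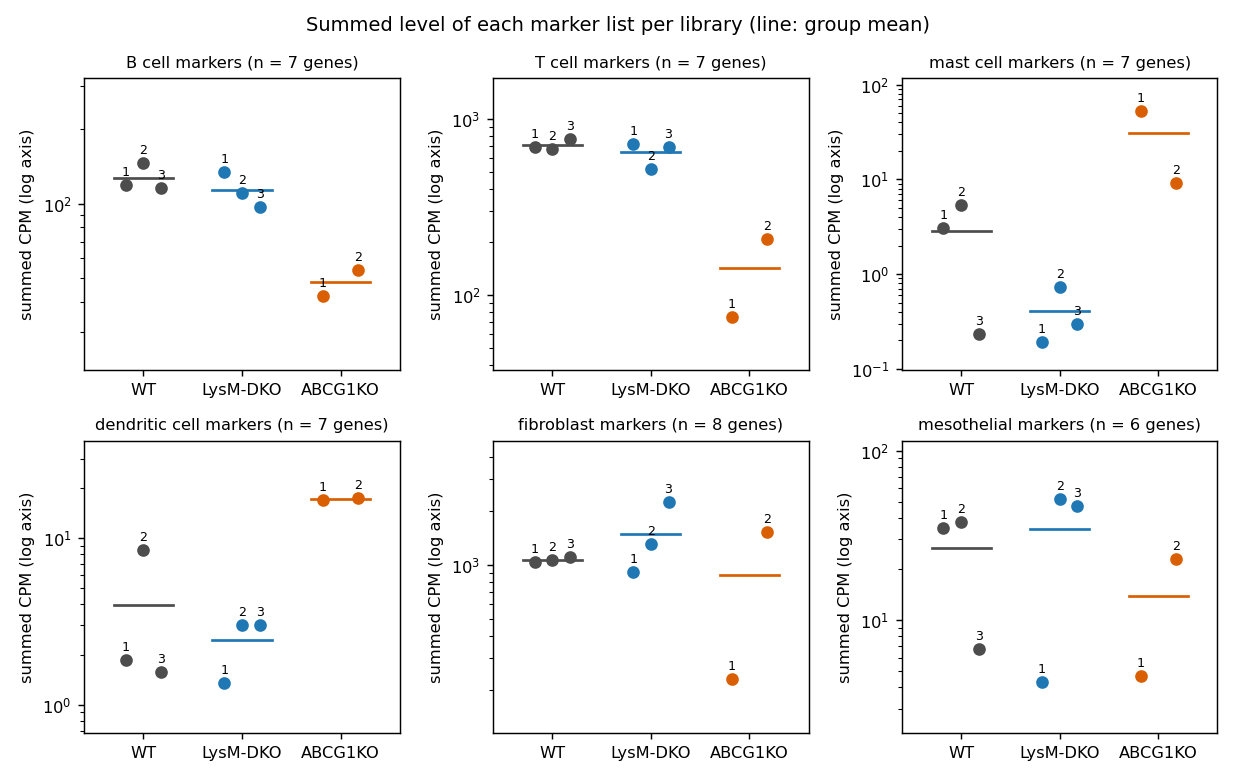
Points are the summed CPM of each list in each library (log axis, replicate number beside the point), and lines are group means. ABCG1KO 1 lies above all other libraries for mast cell markers (52.8 CPM) and below them for fibroblast markers (230 CPM).

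The B cell list held 2 kinds of genes. Cd22, which encodes an inhibitory lectin of the B cell surface, supplied 91.4% of the CPM summed over the list. Its levels were 110, 113 and 113 CPM in WT 1 to 3, 133, 108 and 93.4 in LysM-DKO 1 to 3, and 27.7 and 50.2 in ABCG1KO 1 and 2. WT and LysM-DKO overlapped, and both ABCG1KO libraries were below all 6. Cd22 fell in ABCG1KO against WT by 1.52 on the log2 scale (SE 0.260, adjusted p 0.00774 by the quasi-likelihood test of edgeR, adjusted after Benjamini and Hochberg over all genes tested), and it was -0.01 (SE 0.220, adjusted p 0.996) in LysM-DKO against WT.

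Cd79a, which encodes a signalling subunit of the B cell receptor, behaved otherwise. It had 98, 346 and 47 counts in WT 1 to 3, 0, 14 and 11 in LysM-DKO 1 to 3, and 182 and 15 in ABCG1KO 1 and 2. WT and LysM-DKO did not overlap, and the ABCG1KO libraries lay one within the WT range and one below it. Cd79b, the partner subunit, had 75, 282 and 20 counts in WT, 0, 28 and 31 in LysM-DKO, and 171 and 82 in ABCG1KO. Here WT 3, at 20 counts, fell inside the LysM-DKO range.

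Ms4a1, which encodes CD20 of the B cell membrane, had 29, 253 and 14 counts in WT, 1, 6 and 9 in LysM-DKO, and 51 and 4 in ABCG1KO. Fcmr, the receptor for the constant part of IgM, had 56, 286 and 24 counts in WT, 0, 6 and 0 in LysM-DKO, and 40 and 17 in ABCG1KO. For both genes every WT library was above every LysM-DKO library. Pax5, which encodes the transcription factor that fixes B cell identity, was sparse, with 11, 27 and 0 counts in WT, 0, 1 and 2 in LysM-DKO, and 10 and 7 in ABCG1KO. Ebf1, an earlier B lineage factor that is also transcribed in mesenchymal cells, followed a different order: it was highest in LysM-DKO 3 at 2.45 CPM and lowest in ABCG1KO 1 at 0.188 CPM.

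With Cd22 and Ebf1 set aside, a choice made after their values were seen, the other 5 B cell genes summed to 7.88, 33.0 and 2.72 CPM in WT 1 to 3, 0.0242, 1.34 and 1.32 in LysM-DKO 1 to 3, and 14.2 and 2.95 in ABCG1KO 1 and 2. All 5 were highest in WT 2. In LysM-DKO 1 these 5 genes together gave 1 count. A wider list of 14 B cell genes, 10 of them in the files, summed to 34.1 CPM in WT 2 and 2.81 CPM in LysM-DKO 1. Cd22 did not follow the other 5: it was higher in LysM-DKO 1, where they were nearly at 0, than in WT 2, where they peaked. Per kilobase of exon, the mean level in WT was 22.2 CPM for Cd22, 3.12 for Cd79a, 2.45 for Cd79b, 1.95 for Fcmr and 0.442 for Ms4a1.

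The sequence before the RefSeq start of Cd22 is shown because Cd22 was the only one of the 5 B cell markers with a promoter in the table that held a palindromic site of the EBF type (TCCC, any 2 bases, then GGGA, which reads alike on both strands) in the window from 250 bases before to 50 bases after the start. This motif was in 0.904% of 32851 mouse promoters of the same length. The 120 bases, at chr7:30879029-30879148 on the minus strand of GRCm38.p6, lie inside the annotated gene and touch none of its exons in GENCODE M21, and the capitals mark the motif, 49 to 40 bases before the start.
Cd22: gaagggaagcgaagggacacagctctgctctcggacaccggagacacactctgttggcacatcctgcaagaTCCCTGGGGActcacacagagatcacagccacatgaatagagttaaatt
The match describes these letters only, and no binding was measured.

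**Figure D3:**
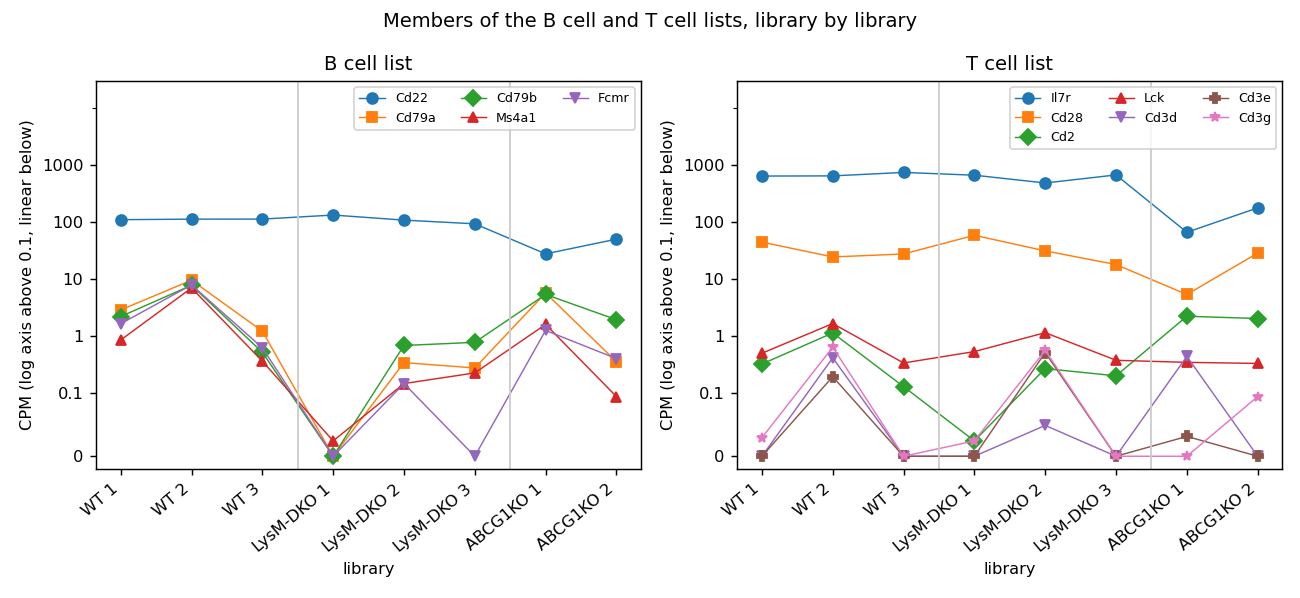
CPM of 5 B cell markers and all 7 T cell markers in each library, on an axis that is logarithmic above 0.1 CPM and linear below. Cd22 and Il7r run nearly level through WT and LysM-DKO and drop in ABCG1KO, whereas Cd79a and its companions peak in WT 2 and are at or near 0 in LysM-DKO 1, and Cd3e and Cd3g are highest in WT 2 and LysM-DKO 2.

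The T cell list was divided in the same way. Il7r, which encodes the alpha chain of the interleukin 7 receptor, supplied 94.2% of its summed CPM. Its levels were 644, 648 and 746 CPM in WT 1 to 3, 666, 486 and 674 in LysM-DKO 1 to 3, and 66.3 and 178 in ABCG1KO 1 and 2. Both ABCG1KO libraries were below all others, and WT and LysM-DKO overlapped. Il7r fell in ABCG1KO against WT by 2.48 on the log2 scale (SE 0.399, edgeR adjusted p 0.00616), and this was called in all 17 alternative analyses, with adjusted p-values from 8.64e-10 to 0.0467. It was -0.16 (SE 0.323, edgeR adjusted p 0.867) in LysM-DKO against WT. Per kilobase, its mean level in WT was 146 CPM, the highest of all 42 markers.

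Cd28, a costimulatory receptor, was at 44.6, 24.5 and 27.6 CPM in WT, 58.7, 31.2 and 18 in LysM-DKO, and 5.36 and 28.6 in ABCG1KO. Only ABCG1KO 1 stood apart. The genes of the T cell receptor complex were nearly absent. Cd3g, a subunit of CD3, had 1, 23 and 0 counts in WT 1 to 3, 1, 23 and 0 in LysM-DKO 1 to 3, and 0 and 4 in ABCG1KO 1 and 2. Cd3e, another subunit, had 7 counts in WT 2, 21 in LysM-DKO 2, 1 in ABCG1KO 1 and none in the other 5 libraries. Cd3d, the third of these subunits, had 15 counts in WT 2, 14 in ABCG1KO 1, 2 in LysM-DKO 2 and none elsewhere. WT 2 and LysM-DKO 2 were thus the only libraries with counts for all 3 subunits. Only WT 2 had over 3 counts for each, as the 2 counts of Cd3d in LysM-DKO 2 cannot be told from 0.

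Of 8 NK cell genes, 4 were over 3 counts in WT 2 and 5 in LysM-DKO 2, against 1 or 2 in the other 6 libraries, and 3 genes of cytotoxic lymphocytes are named for this pattern, chosen after their values were seen. Gzmb, which encodes granzyme B, was at 0.801 CPM in WT 2 and 0.195 in LysM-DKO 2 and at 0 in the other 6 libraries. Prf1, which encodes perforin, was at 0.221 and 0.487 CPM in these 2 libraries and at 0 in the others, and Nkg7, a granule protein of such cells, was at 0.414 and 0.487 CPM there and at 0.354 in ABCG1KO 2. Klrb1c, an NK cell receptor and the only gene of that list over 3 counts in every library, did not share this pattern: it was at 0.248 CPM in WT 2 and 0.195 in LysM-DKO 2, below WT 3 (0.699) and LysM-DKO 3 (0.700). A wider list of 17 T cell genes, 14 of them in the files, summed to 67.6 CPM in WT 2 and 14.6 in LysM-DKO 2, against 51.4 and 61.6 in WT 1 and 3 and 13.7 and 32.5 in LysM-DKO 1 and 3. The sum thus did not set LysM-DKO 2 apart, but the number of genes found did. Of the 14 genes, 12 were over 3 counts in LysM-DKO 2 and 11 in WT 2, against 4 to 8 in the other libraries. Lck, the kinase next to the T cell receptor, was highest in WT 2 at 1.66 CPM and LysM-DKO 2 at 1.15, and at 0.330 to 0.533 in the other 6. Cd2, an adhesion receptor of T and NK cells, was higher in both ABCG1KO libraries (2.23 and 2.03 CPM) than in any other (0.0242 to 1.13 CPM). The log2 fold change of Cd2 in ABCG1KO against WT was 2.01 (SE 0.999, edgeR adjusted p 0.211), which did not pass the threshold.

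Transcripts of the 7 mast cell markers were concentrated in 1 library. All 7 markers were highest in ABCG1KO 1, where they gave 1685 counts together, against 385 in ABCG1KO 2, 104, 194 and 9 in WT 1 to 3, and 8, 30 and 12 in LysM-DKO 1 to 3. The granule proteases led. Cpa3, which encodes mast cell carboxypeptidase, was at 0.615, 1.27 and 0.0776 CPM in WT, 0.0969, 0.317 and 0.175 in LysM-DKO, and 9.78 and 1.16 in ABCG1KO. Tpsb2, a tryptase, was at 0.586, 1.08 and 0 CPM in WT, 0, 0.146 and 0 in LysM-DKO, and 15.4 and 3.96 in ABCG1KO. Cma1, a chymase, was at 0.615, 0.580 and 0 CPM in WT, 0, 0.0244 and 0 in LysM-DKO, and 15.0 and 1.11 in ABCG1KO. Both ABCG1KO libraries were above all others for Tpsb2 and Cma1, while for Cpa3 the level in ABCG1KO 2 lay within the WT range. A wider list of 12 mast cell genes was less uneven. It summed to 11.3 and 8.75 CPM in ABCG1KO 1 and 2, against 2.45 to 5.65 in the other libraries. Of the 12, 6 were higher in both ABCG1KO libraries than in every WT library, against 23.9% of all genes. Of the 7 over 3 counts in both ABCG1KO libraries, 5 were more than 2-fold higher in ABCG1KO 1.

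Mcpt4, the mast cell protease of connective tissue, had 110 counts in ABCG1KO 1, 1 in ABCG1KO 2, 1 in WT 2 and none in the other 5 libraries. Fcer1a, the chain of the high-affinity receptor that binds IgE, had 21 counts in ABCG1KO 1, 1 in WT 2 and none elsewhere. These receptor and protease transcripts were thus over 3 counts in a single library, and neither gene entered the test. Hdc, the enzyme that makes histamine, was at 1.17, 2.21 and 0.0518 CPM in WT, 0.0727, 0.195 and 0.05 in LysM-DKO, and 5.61 and 1.13 in ABCG1KO, so that ABCG1KO 2 lay within the WT range.

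Kit, the receptor for stem cell factor on which mast cells depend, was the most even between the ABCG1KO libraries of the 5 genes over 3 counts in both. It had 2, 6 and 4 counts in WT, 1, 2 and 3 in LysM-DKO, and 93 and 72 in ABCG1KO, or 2.92 and 1.70 CPM. Both ABCG1KO libraries stood well above all others. Kit rose in ABCG1KO against WT by 4.35 on the log2 scale (SE 0.729, edgeR adjusted p 0.00714). ABCG1KO 1 exceeded ABCG1KO 2 by 13.5-fold for Cma1, 8.46-fold for Cpa3, 4.96-fold for Hdc, 3.89-fold for Tpsb2 and 1.72-fold for Kit, on CPM. Across all genes tested, 6.87% of those over 3 counts in both libraries were more than 2-fold higher in ABCG1KO 1, against 4 of the 5 mast cell genes that could be compared in this way.

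Sites for GATA factors, among them GATA2 of mast cells, were looked for as AGATAA or TGATAA on either strand. These letters were in the windows of 3 of the 6 mast cell markers with a RefSeq promoter (Cpa3, Mcpt4 and Fcer1a), against 18.6% of all promoters. They were not in those of Cma1, Kit and Hdc. Other forms of the site were not searched for, so these windows may still hold a GATA site. All 6 mast cell markers with a promoter were highest in ABCG1KO 1. The motif was also found for 2 of 6 dendritic cell, 1 of 5 B cell, 1 of 5 T cell and 1 of 3 mesothelial markers. It was in none of 5 fibroblast markers. The 120 bases before the start of Cpa3, Mcpt4 and Fcer1a are shown because these 3 mast cell markers hold the motif. It is in capitals (read on the opposite strand for Fcer1a). The windows are chr3:20242182-20242301, chr14:56062311-56062430 and chr1:173227230-173227349 in GRCm38.p6, all on the minus strand, and they lie before the annotated genes except for 3 bases at Mcpt4.
Cpa3: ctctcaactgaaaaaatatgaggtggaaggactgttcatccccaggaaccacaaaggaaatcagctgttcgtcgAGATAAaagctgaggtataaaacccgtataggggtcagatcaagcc
Mcpt4: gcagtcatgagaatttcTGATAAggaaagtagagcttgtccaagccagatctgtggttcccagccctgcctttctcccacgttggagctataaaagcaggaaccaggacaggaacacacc
Fcer1a: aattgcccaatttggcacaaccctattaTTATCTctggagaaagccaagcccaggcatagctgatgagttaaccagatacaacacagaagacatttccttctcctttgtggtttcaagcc
The motif begins 46, 103 and 92 bases before the start in Cpa3, Mcpt4 and Fcer1a.

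Among the 7 dendritic cell markers, 4 genes separated both ABCG1KO libraries from all 6 others: Siglech, Cd209a and Zbtb46 were higher there and Clec9a was lower. Of all genes tested, 48.2% did not overlap between ABCG1KO and WT, and 48.2% between LysM-DKO and ABCG1KO. The share of all genes apart from all 6 libraries was not computed. Siglech, which encodes a lectin of plasmacytoid dendritic cells that some macrophages also carry, had 0 counts in all 3 WT libraries, 1, 3 and 0 in LysM-DKO 1 to 3, and 181 and 202 in ABCG1KO 1 and 2 (5.67 and 4.76 CPM). It rose in ABCG1KO, to a level at least 63.0-fold higher than WT, taking 3 counts per WT library as the limit (edgeR adjusted p 0.00423, called in all 16 alternatives in which it was tested, with adjusted p-values from 1.00e-11 to 0.0495). Against LysM-DKO the ratio of its counts was 158, with a 95% interval of 61.1 to 581 that covers counting error only. Siglech differed by 1.19-fold between the ABCG1KO libraries and so did not follow the 7 mast cell markers, which peaked in ABCG1KO 1.

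Cd209a, a lectin of monocyte-derived dendritic cells, was at 0.615, 1.08 and 0.285 CPM in WT, 0, 0.902 and 0.0750 in LysM-DKO, and 5.20 and 9.55 in ABCG1KO. Zbtb46, a transcription factor of conventional dendritic cells, was at 0.498, 1.16 and 0.285 CPM in WT, 0.436, 0.561 and 1.92 in LysM-DKO, and 5.20 and 2.62 in ABCG1KO. Neither gene passed the threshold against WT, with log2 fold changes of 3.48 (SE 1.28, edgeR adjusted p 0.105) for Cd209a and 2.59 (SE 0.830, edgeR adjusted p 0.0694) for Zbtb46, although the groups did not overlap. DESeq2 called both in that comparison. Clec9a, the dead-cell receptor of cross-presenting dendritic cells, went the other way, at 0.674, 5.96 and 0.750 CPM in WT, 0.703, 1.15 and 0.850 in LysM-DKO, and 0.313 and 0.212 in ABCG1KO. Its log2 fold change against WT was -3.22 (SE 1.11, edgeR adjusted p 0.0853), and DESeq2 called it. WT 2 was the highest library for Clec9a, as it was for 5 of the B cell genes.

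The remaining dendritic cell markers were close to background. Flt3, the receptor on which dendritic cells depend, had 6 counts in WT 3, 10 in ABCG1KO 1 and none elsewhere. Xcr1, a chemokine receptor of cross-presenting cells, had at most 9 counts, and Itgae, the integrin chain CD103, at most 12. A wider dendritic cell list held genes that macrophages also transcribe at high level, such as Itgax and Irf8, so it says little about traces. Its sum was lowest in ABCG1KO 1 and 2, at 755 and 844 CPM, against 970 to 2899 in the other libraries.

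Fibroblast markers were abundant in every library. The 8 genes summed to 1038, 1057 and 1108 CPM in WT 1 to 3, 909, 1298 and 2228 in LysM-DKO 1 to 3, and 230 and 1529 in ABCG1KO 1 and 2. WT libraries were close to each other, whereas the ABCG1KO libraries lay on either side of them. Col1a2, a chain of type I collagen, Col1a1, its partner chain, and Sparc, a matrix glycoprotein, supplied 31.9%, 27.8% and 23.4% of the sum. Per kilobase, Sparc (61.1 CPM), Col1a1 (43.6) and Col1a2 (29.6) were the highest fibroblast markers in WT, below Il7r.

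Col1a1 was at 206, 199 and 453 CPM in WT, 207, 206 and 738 in LysM-DKO, and 50.3 and 549 in ABCG1KO. The group ranges overlapped and the libraries within each knockout label differed several-fold. All 8 fibroblast genes were lower in ABCG1KO 1 than in ABCG1KO 2, by 10.9-fold for Col1a1, 7.82-fold for Col1a2, 4.96-fold for Sparc, 4.66-fold for Pdgfra, the receptor for platelet-derived growth factor, 3.78-fold for Postn, a matrix protein, 2.54-fold for Col3a1, a fibrillar collagen, and 2.25-fold for Dcn, the proteoglycan decorin. Of all genes tested, 48.2% were lower in ABCG1KO 1 than in ABCG1KO 2. All 8 were also higher in LysM-DKO 3 than in LysM-DKO 1, against 50.6% of all genes, with a median ratio of 2.08.

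Lum, the small proteoglycan lumican, was the only fibroblast marker that edgeR called with all libraries. DESeq2 called Dcn and Lum in ABCG1KO against WT, and Col3a1, Dcn, Lum and Postn in LysM-DKO against ABCG1KO. Lum had 40, 38 and 94 counts in WT, 23, 105 and 48 in LysM-DKO, and 1 and 9 in ABCG1KO, so that both ABCG1KO libraries were below the rest. It fell in ABCG1KO against WT by 3.59 on the log2 scale (SE 1.03, edgeR adjusted p 0.0489), just inside the threshold, and was called in 4 of 16 alternatives, with adjusted p-values from 0.00141 to 0.239. The call was lost whichever WT or ABCG1KO library was left out. None of the 8 was called in LysM-DKO against WT. In that comparison 7 of the 8 fitted values were positive, with a median log2 fold change of 0.35, against 0.02 for all genes tested. Of a wider list of 16 fibroblast genes, 15 were tested there and none was called. Among these 15, 13 values were positive and 2 negative, with a median of 1.01. Of the 16 genes, 6 were higher in every LysM-DKO library than in every WT library and 1 was lower. Among all genes tested, 21.0% did not overlap between these groups, in either direction. The list summed to 467, 381 and 525 CPM in WT 1 to 3 and 564, 675 and 1460 in LysM-DKO 1 to 3.

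**Figure D4:**
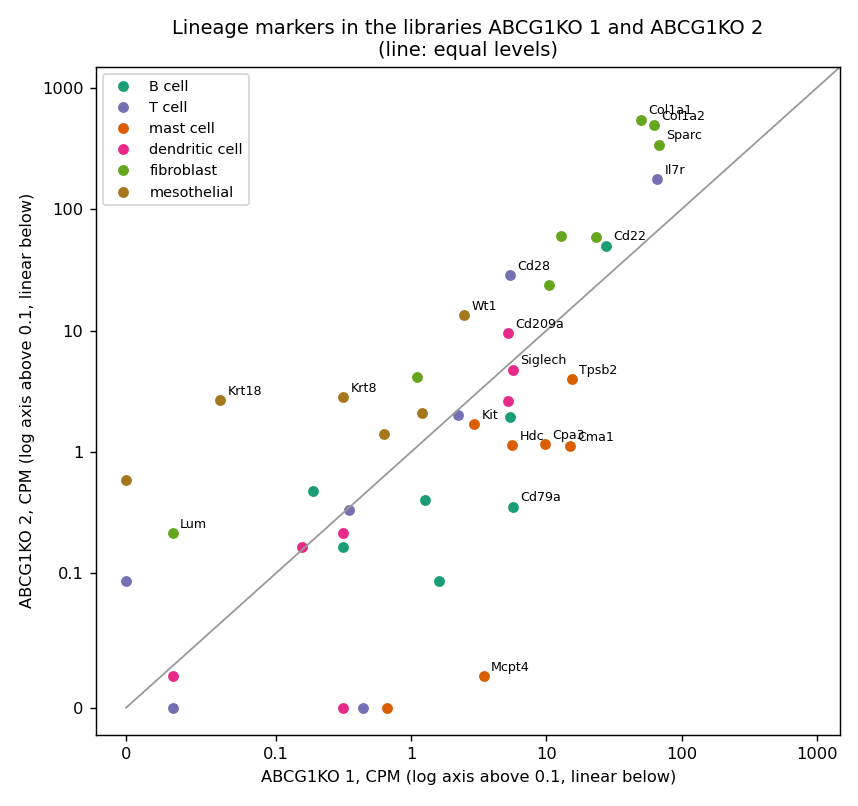
CPM of each marker in ABCG1KO 1 (horizontal) against ABCG1KO 2 (vertical), on axes that are logarithmic above 0.1 CPM and linear below, with a line of equal levels. All 7 mast cell markers lie below the line, towards ABCG1KO 1, and all 8 fibroblast and 6 mesothelial markers lie above it, while Siglech and Cd2 lie close to it.

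Mesothelial markers varied by library more than by genotype. The 6 genes summed to 35.0, 37.7 and 6.78 CPM in WT 1 to 3, 4.31, 51.6 and 47.1 in LysM-DKO 1 to 3, and 4.67 and 22.9 in ABCG1KO 1 and 2. Each group thus held a library under 7 CPM and at least 1 over 22 CPM. Upk3b, a uroplakin of mesothelium, and Wt1, a transcription factor of mesothelial cells, supplied 44.8% and 44.0% of the sum.

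Upk3b was at 18.7, 22.2 and 2.10 CPM in WT, 1.33, 30.5 and 16.0 in LysM-DKO, and 1.19 and 2.08 in ABCG1KO. Both ABCG1KO libraries were below WT by a small margin in WT 3, with a fitted log2 difference of -3.13 (SE 1.38, edgeR adjusted p 0.167). Wt1 was at 13.2, 13.8 and 4.24 CPM in WT, 2.74, 18.7 and 23.9 in LysM-DKO, and 2.48 and 13.4 in ABCG1KO, with overlap between all groups. Msln, mesothelin, was highest in LysM-DKO 3 at 3.62 CPM. The keratins Krt18 and Krt8 were highest in ABCG1KO 2, at 2.66 and 2.81 CPM, and Krt19 in WT 1, at 1.32 CPM. Of the 50-base words in the exons of Krt8, 29.7% also occur in other annotated genes, among them a pseudogene copy, so its counts are less certain. All 6 mesothelial markers were lower in ABCG1KO 1 than in ABCG1KO 2 and lower in LysM-DKO 1 than in LysM-DKO 3. A wider mesothelial list, 11 of its 12 genes in the files, had its lowest sum in LysM-DKO 1 (5.5 CPM) and its highest in LysM-DKO 3 (85.7 CPM).

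Setting LysM-DKO against WT asks what loss of epsins changes in macrophages. No marker was called in it by edgeR, against 5 of 13821 genes (0.0362%), or 0.0217% higher and 0.0145% lower in LysM-DKO. At an unadjusted p under 0.05 there were 6 of 36 markers (Cd79a, Ms4a1, Pax5, Fcmr, Cma1 and Hdc), all lower in LysM-DKO, against 11.7% of all genes. The log2 fold changes were -4.45 (SE 1.43, edgeR adjusted p 0.354) for Cd79a, -4.34 (SE 1.49, edgeR adjusted p 0.355) for Ms4a1 and -6.02 (SE 1.51, edgeR adjusted p 0.295) for Fcmr. DESeq2 called these 3 markers, all lower, among 278 genes. They were also the only 3 of 42 markers whose groups did not overlap, all lower in LysM-DKO, against 21.0% of all genes and 9.98% that were lower. For all 3, WT 2 was the highest library and LysM-DKO 1 held at most 1 count. LysM-DKO 1 was also the library of these 2 groups with Ddx3y in place of Xist, and the part of sex was not tested. Over the alternatives the log2 fold change ran from -5.03 to -3.30 for Cd79a, from -4.95 to -2.18 for Ms4a1 and from -9.99 to -4.44 for Fcmr. For Ms4a1 it was -2.21 without WT 2. For Fcmr it was -4.48 without WT 2 and -9.99 without LysM-DKO 2, where the LysM-DKO libraries left held no count, so that this value depends on the prior count of the fit. The 5 calls over all genes became 0 when WT 2, LysM-DKO 2 or LysM-DKO 3 was left out, 2 without WT 1 or LysM-DKO 1, and 8 without ABCG1KO 1.

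The comparison of ABCG1KO with WT asks what loss of the cholesterol transporter changes. Of 36 markers tested, 5 were called (Siglech and Kit higher, Cd22, Il7r and Lum lower), against 2216 of 13821 genes (16.0%), or 7.21% higher and 8.83% lower, so the markers were called about as often as genes in general. Among 42 markers, 9 were higher in both ABCG1KO libraries than in every WT library (Cd2, Tpsb2, Cma1, Kit, Zbtb46, Cd209a, Itgae, Siglech and Msln), against 23.9% of all genes, and 6 were lower (Cd22, Il7r, Clec9a, Lum, Postn and Upk3b), against 24.3%. All 5 mast cell markers tested had positive log2 fold changes, with a median of 4.12 against 0.01 for all genes, but only Kit passed the threshold. Kit and Siglech met the count filter through the ABCG1KO libraries alone. Their higher direction was thus tied to their entry into the test. For Cma1 the value was 4.33 (SE 1.40, edgeR adjusted p 0.0732), for Tpsb2 4.12 (SE 1.46, edgeR adjusted p 0.0953) and for Cpa3 3.06 (SE 1.12, edgeR adjusted p 0.103).

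Leaving out ABCG1KO 1, the library rich in mast cell transcripts, or ABCG1KO 2 leaves 1 library in that group. Such fits take their spread from the other groups, so only effect sizes are given here. Over all alternatives, the log2 fold change ran from 3.91 to 4.77 for Kit, from -2.02 to -1.16 for Cd22 and from -3.36 to -1.94 for Il7r. With both ABCG1KO 1 and WT 2 left out, a choice made after the levels were seen, it was 4.32 for Kit and -1.16 for Cd22. Over all genes, 1186 were called without WT 2, of which 1163 (52.5% of 2216) were also called with all libraries. Without WT 1 the numbers were 1372 and 1281 (57.8%), and without WT 3 they were 1318 and 1264 (57.0%). A fit without a library also has fewer residual degrees of freedom, and the part of other cells in these differences was not tested. Without scaling factors, 2930 genes were called, 70.8% of them higher in ABCG1KO instead of 44.9%, since the log2 fold changes of all genes moved by a median of 0.24. Siglech, Kit, Cd22 and Il7r were called on that scale too, in the same directions.

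**Figure D5:**
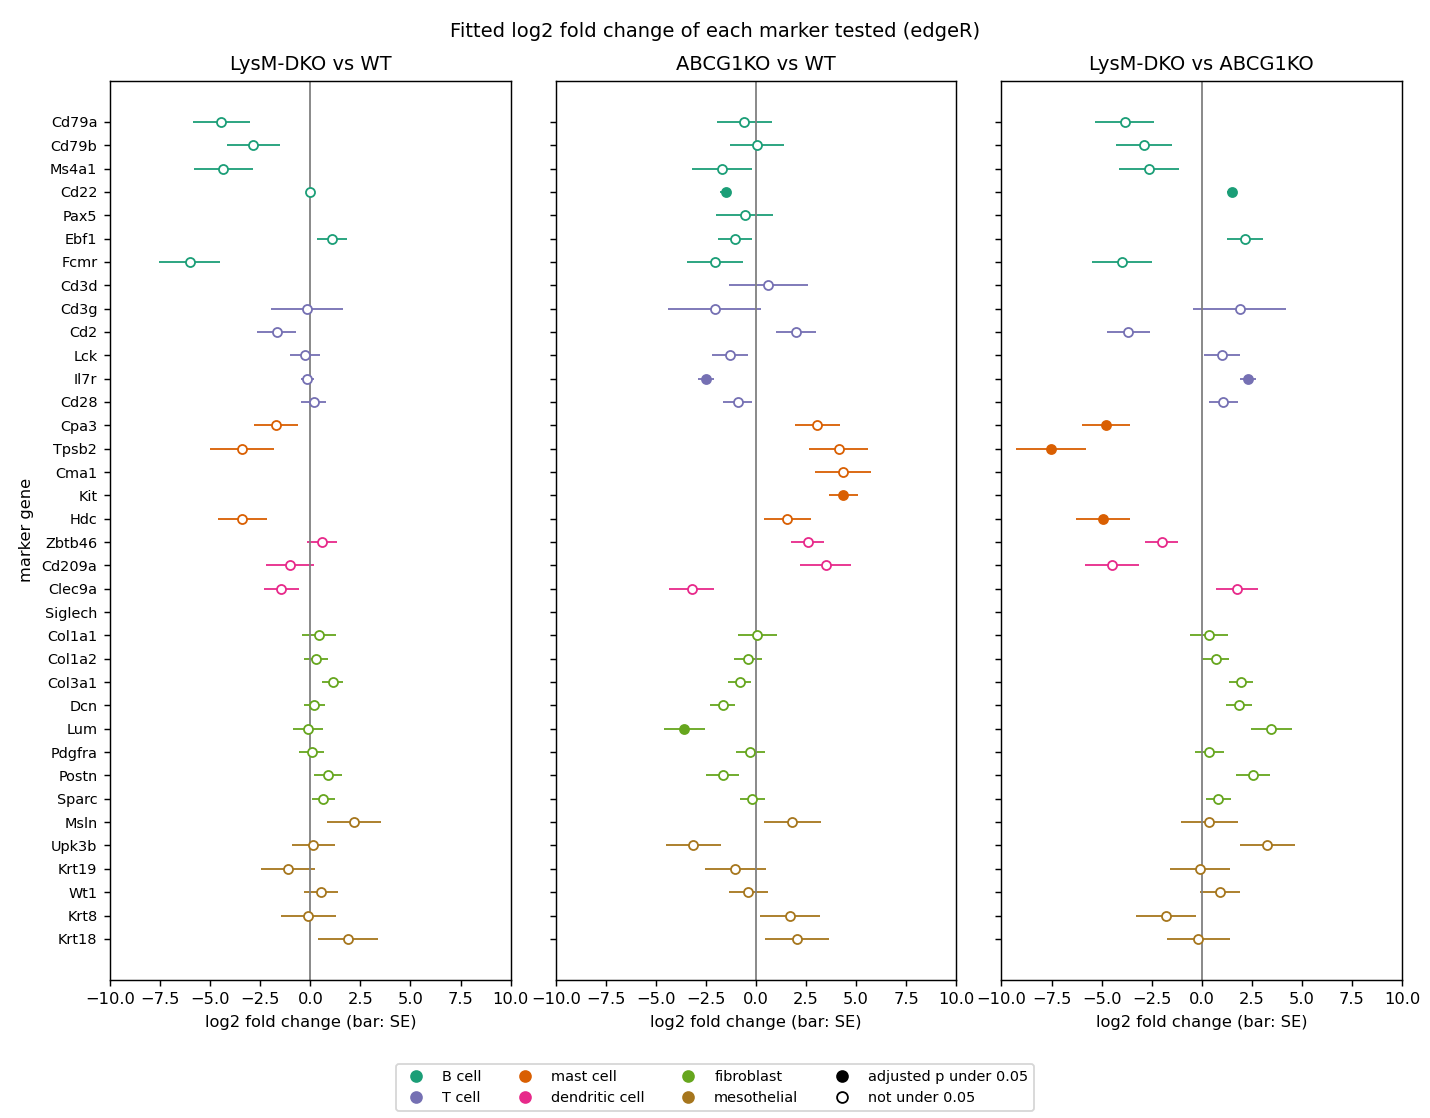
Fitted log2 fold change (point) with its SE (bar) for each marker tested in the 3 comparisons, filled where the edgeR adjusted p was under 0.05. Markers with at most 3 counts in every library of a group, such as Siglech, have no point in that comparison, and Cd22 and Il7r carry far smaller errors than the sparse B cell and mast cell genes.

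LysM-DKO was also set against ABCG1KO, and both of the comparisons with ABCG1KO share its 2 libraries. Sex was uneven here too: both ABCG1KO libraries and LysM-DKO 1 had Ddx3y, and LysM-DKO 2 and 3 had Xist. The part of sex was not tested. Of 36 markers, 8 were called, against 1853 of 13821 genes (13.4%), or 7.76% higher and 5.64% lower in LysM-DKO. Among 42 markers, 9 were higher in every LysM-DKO library than in both ABCG1KO libraries, against 25.6% of all genes, and 14 were lower, against 22.6%. Cd22 and Il7r were higher in LysM-DKO, by 1.52 (SE 0.260, edgeR adjusted p 0.00906) and 2.32 (SE 0.396, edgeR adjusted p 0.00900) on the log2 scale. Cpa3, Tpsb2, Cma1, Kit, Hdc and Siglech were lower, with Kit and Siglech in the test through the ABCG1KO libraries alone. Cpa3 fell by 4.78 (SE 1.21, edgeR adjusted p 0.0380), Tpsb2 fell by 7.53 (SE 1.76, edgeR adjusted p 0.0312) and Hdc fell by 4.95 (SE 1.35, edgeR adjusted p 0.0464). Tpsb2 had 0, 6 and 0 counts in LysM-DKO 1 to 3, so the size of its fall rests on few counts. For Cma1, LysM-DKO held 1 count in all and the ratio of counts was 866 with a 95% interval of 155 to 34268 (edgeR adjusted p 0.0195), and for Kit the ratio was 45.3 with an interval of 20.4 to 125 (edgeR adjusted p 0.00408), both intervals for counting error only.

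These mast cell calls were lost when single libraries were left out. When any 1 of the LysM-DKO libraries was left out, Cma1, Cpa3, Hdc and Tpsb2 were no longer called. Kit, Siglech, Cd22 and Il7r were called in each of these fits. Without ABCG1KO 1 that group keeps 1 library, so only effect sizes are given for that fit here. Without WT 1, which enters through the shared spread, Cpa3, Hdc and Tpsb2 were lost, and without WT 2 Hdc was. The range of adjusted p over the alternatives was 0.000150 to 0.327 for Cpa3, 0.0150 to 0.192 for Tpsb2, 0.000766 to 0.176 for Cma1 and 0.000548 to 0.290 for Hdc. All 4 kept a negative log2 fold change in every alternative in which they were tested. It was -6.27 for Tpsb2, -2.56 for Cpa3 and -3.39 for Hdc without ABCG1KO 1, and -6.99, -4.47 and -4.76 without LysM-DKO 1. Over the alternatives it ran from -11.5 to -6.25 for Tpsb2 and from -11.3 to -6.61 for Cma1. For Cpa3 it ran from -5.61 to -2.54 and for Hdc from -5.72 to -3.38. Without scaling factors the 8 calls were the same, while the share of all calls that were higher in LysM-DKO went from 57.9% to 46.3%. Over all genes, 943 were called without LysM-DKO 1 and 1005 without LysM-DKO 2.

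The genes on which the comparisons turn were located in GENCODE M21 on GRCm38. Cd22 (ENSMUSG00000030577.14) spans chr7:30865402-30880342 on the minus strand, and 9.5% of its exon bases are overlapped by Gm29439 on the opposite strand. The strand setting of the counting is not given in the sources used here, so reads from the 2 genes cannot be told apart there. Il7r (ENSMUSG00000003882.5) spans chr15:9505788-9530176 on the minus strand, Kit (ENSMUSG00000005672.12) chr5:75574916-75656722 on the plus strand, and Siglech (ENSMUSG00000051504.18) chr7:55768178-55778925 on the plus strand. No other gene overlaps the exons of these 3, and under 1% of their 50-base words occur elsewhere among annotated transcripts. That share was 8.31% for Cd79a, with Gm32220, and 7.02% for Pax5, with the overlapping genes 5730488B01Rik and Gm12462. For Cd22 it was 7.84%, spread over 69 genes. For the proteases it was 5.48% for Mcpt4, with Cma2 and Mcpt9, and 5.38% for Cma1, with Gm48934.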

How the data were processed

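RNA from primary mouse macrophages was sequenced in 8 libraries of 3 groups. The values are counts of reads per gene symbol, 1 deposited table per library, in the format that htseq-count writes. The submitters' processing notes name STAR 2.7.9a, TopHat, HTSeq 0.11.2, DESeq2 1.30.1, limma and the build mm10, with no role or order; the annotation and strand setting are not given in the sources used here. The 5 special lines of the counter entered no library size.

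Counts were fitted with edgeR 4.0.16 in R 4.3.3: filterByExpr by group (13821 genes), TMM factors, 1 robust quasi-likelihood fit over all 8 libraries with a term per group and no covariate, and Benjamini-Hochberg adjustment over all genes tested, with a threshold of 0.05. Errors of levels are SD over libraries, and errors of log2 fold changes are SE. The alternatives were RLE factors, library size alone, other count filters (none, or at least 10 counts in every library), DESeq2 1.42.0, the compared groups alone, the replicate number as a block, each library left out and, chosen after seeing the data, WT 2 left out together with LysM-DKO 2 or ABCG1KO 1. Alternatives without ABCG1KO 1 or ABCG1KO 2 keep 1 library in that group, so their calls do not measure spread within it. The fit was tested on simulated data. Per-kilobase levels use exon unions of GENCODE M21 (GRCm38). Shared sequence was counted as 50-base words. Promoters are RefSeq windows on GRCm38.p6, found for 30 of the 42 markers. Intervals of count ratios are at 95% and, like the limit of 3 counts, cover counting error only, since no molecular identifiers mark independent molecules.

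Same-numbered libraries were checked for shared deviations from their group means, and correlations ran from -0.09 to 0.43 over 7 pairs. The highest was WT 2 with LysM-DKO 2, the libraries that shared T and NK cell transcripts. The other pairs of WT with LysM-DKO gave 0.04 and -0.01. With 2 libraries in ABCG1KO, deviations from its mean mirror each other, so its pairs say little. The numbers were not taken as pairs, and a shared source of WT 2 and LysM-DKO 2 was not tested. The members and gene lists were chosen with earlier results of these data known. Any of the 42 members could be named; from each wider list, the 3 genes with the highest mean CPM and up to 3 called genes per comparison could be named, besides the genes of the genotypes and Xist and Ddx3y. Other names were chosen after their values were seen, as stated beside them.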

Additional observations from a re-analysis of the deposited data

How the results depend on the processing

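In LysM-DKO against WT, 5 genes were called by edgeR over all libraries, 3 with at least 10 counts in every library, 278 by DESeq2, 8 in the compared groups alone, 0 to 8 when 1 library was left out, 0 without WT 2 and LysM-DKO 2 and 3 without WT 2 and ABCG1KO 1. Markers called were 0 and, by DESeq2, 3. DESeq2 called 3148 genes in ABCG1KO against WT, more than the 2216 of edgeR. In ABCG1KO against WT the 2216 genes became 853 to 2090 when 1 library was left out, 853 without WT 2 and LysM-DKO 2 and 463 without WT 2 and ABCG1KO 1, and the 5 markers became 2 with at least 10 counts in every library, 10 by DESeq2, 4 to 7 when 1 library was left out and 2 without WT 2 and ABCG1KO 1. In LysM-DKO against ABCG1KO the 1853 genes became 2947 by DESeq2, 948 in the compared groups alone, 561 to 1960 when 1 library was left out, 683 and 374 without the same pairs of libraries, and the 8 markers became 2 with at least 10 counts in every library, 16 by DESeq2, 4 to 12 when 1 library was left out, and 5 and 1 without those pairs. The filter on every library leaves the sparse markers untested, and left-out libraries leave fewer samples, in ABCG1KO only 1. The cause of the other changes was not tested.

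With the replicate number as a block, 0, 704 and 333 genes and 0, 5 and 3 markers were called in the same order of comparisons. In ABCG1KO against WT, Cd22, Il7r and Siglech were among the 5, Kit (log2 fold change 4.32, edgeR adjusted p 0.106) and Lum (-3.36, edgeR adjusted p 0.180) were not, and Dcn and Upk3b came in. In LysM-DKO against ABCG1KO, Siglech was the only one of the 8 left, and Col3a1 and Dcn came in. The numbers share no stated source, so a call lost under the block is no measure of a weaker effect.

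On plain library size, the summed level of T cell markers in WT was 659 CPM instead of 713, of dendritic cell markers in ABCG1KO 18.6 instead of 17.1, and of fibroblast markers in WT 986 instead of 1068. That scaling moved all genes by a median log2 of 0.15 in LysM-DKO against WT, where 4 markers near 0 (Cd22, Cd3g, Krt8 and Lum) changed sign, and Sparc did in ABCG1KO against WT; none of these 5 values was past the threshold on either scale. At these depths, levels of 3 counts or fewer cannot be told from 0.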

Other observations

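Gene lists of other cell types outside the 42 markers ranged from near 0 to abundant. Of 6 erythroid genes, 5 had 0 counts in 7 of the 8 libraries and 4 in ABCG1KO 1. The adipocyte list summed to 195 to 505 CPM, but Fabp4, a fatty acid binding protein that macrophages also make, was the only one of its 5 genes over 3 counts in any library. The endothelial list summed to 7.05 to 24.6 CPM and changed its leading gene between groups: Kdr, a receptor for vascular endothelial growth factor, was at 13.0, 14.7 and 18.3 CPM in WT 1 to 3, 24.2, 18.7 and 17.4 in LysM-DKO 1 to 3, and 0.909 and 0.566 in ABCG1KO 1 and 2, while Pecam1, an adhesion molecule of endothelium and leukocytes, was at 5.42 and 7.73 CPM in ABCG1KO and at 0.195 to 2.73 CPM elsewhere. Eosinophil genes summed to 3.14 to 30.2 CPM and platelet genes to 1.49 to 4.68 CPM. Neutrophil genes summed to 354 and 207 CPM in ABCG1KO 1 and 2 and 64.2 to 135 CPM in the other libraries, nearly all of it from Csf3r, the receptor for granulocyte colony-stimulating factor, which rose by 1.40 on the log2 scale in ABCG1KO against WT (SE 0.272, edgeR adjusted p 0.0131, called in 13 of 17 alternatives). Of the 4 neutrophil genes tested in that comparison, 2 had positive and 2 negative values, with a median log2 fold change of -0.15, and Csf3r alone was called. A list of 7 genes of peritoneal macrophages summed to 239 and 122 CPM in ABCG1KO 1 and 2, 110, 185 and 25.6 in WT 1 to 3, and 14.2, 57.5 and 58.2 in LysM-DKO 1 to 3. WT 3 and LysM-DKO 1 were lowest for this list. Its member Gata6, the transcription factor of resident peritoneal macrophages, was at 7.04 CPM in WT 3 and 1.99 in LysM-DKO 1, against 16.1 to 32.6 CPM in the other 6 libraries.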
